A study of Mus musculus with 23 samples.

Results

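The S100 genes encode small calcium-binding proteins, and 8 members of the mouse family were followed here in single fibroblasts, cardiomyocytes and astrocytes: S100a1, S100a4, S100a6, S100a10, S100a11, S100a13, S100b and S100g. The genes were chosen with earlier results of these data known. All probe sets annotated to these names by gene symbol were taken, which gave 12 of the 45101 probe sets on the array. Of these, 11 carried 1 gene symbol and covered 7 of the 8 genes, 3 of them (S100a1, S100a10 and S100b) by more than 1 probe set. The remaining probe set is listed for S100a11, its pseudogene S100a11-ps and Gm12854 together, so no level could be given to S100a11 alone and the probe set is described by its number.

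Each of the 23 samples was a single mouse cell, hybridised to its own Affymetrix array. FibroTIPeR cells (5) were fibroblasts that received poly-A RNA of cardiomyocytes by lipid transfection; TIPeR stands for transcriptome-induced phenotype remodeling. The 3 fibroControl cells were likewise transfected, but with RNA of fibroblasts. Cardiomyocytes (4) and fibroblasts (3) had no transfection. Astrocytes were either transfected with cardiomyocyte RNA (6 astroTIPeR cells) or mock-transfected (2 astroControl cells). All had been cultured in DMEM with fetal bovine serum. The labels give no strain, age, animal or culture, so the cells of a group may not be independent replicates of its treatment. P-values below set a difference of group means against the spread of cells within groups, and that spread may be technical. The control of the astrocytes (mock) differs in kind from that of the fibroblasts (fibroblast RNA).

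All values are log2 levels after quantile normalisation of the arrays to each other, so a difference of 1 is 1 doubling of signal. On this scale the median gene had a level of 5.71 and the 90th percentile of genes was 10.94. The deposited columns fell in 2 array sets, 15 of fibroblasts and cardiomyocytes and 8 of astrocytes, so a level set across these sets rests on the normalisation. Control probe sets for 18S ribosomal RNA stood between 11.03 and 13.48 in fibroTIPeR 1, 2 and 3 and between 11.23 and 12.08 in the fibroControl cells, at 7.80 and 7.88 in fibroTIPeR 4 and 5, at 6.94 to 8.24 in cardiomyocytes and at 7.05 to 8.06 in fibroblasts. The mean level of 10 cardiomyocyte markers was 8.60 to 10.23 in the cardiomyocytes, and 5.38 to 5.98 in the fibroTIPeR cells, against 5.43 to 6.33 in the fibroblasts. The mean of 10 fibroblast markers was 7.34 to 8.21 in fibroTIPeR cells, 7.50 to 9.69 in fibroControl cells and 5.60 to 7.66 in cardiomyocytes, against 7.50 to 9.47 in fibroblasts. The mean of 9 astrocyte markers was not higher in the arrays labelled astrocyte (6.50 to 7.64 in astroTIPeR, 6.21 and 6.64 in astroControl) than in cardiomyocytes (7.07 to 7.66). It was 5.53 to 6.83 in fibroTIPeR cells, 5.79 to 6.50 in fibroControl cells and 6.37 to 7.09 in fibroblasts. Gfap, the intermediate filament of astrocytes, lay between 3.54 and 6.28 in astroTIPeR cells and at 4.90 and 5.73 in astroControl cells. Gfap averaged lower in astroTIPeR cells than in any other group, whereas Fabp7 (5.16) and Aldoc (5.68) averaged higher there than in any other group. The other markers of this list did neither. Macrophage markers (6) averaged 6.06 to 8.13 in astroTIPeR cells and 5.48 and 7.36 in astroControl cells, and at most 6.47 in any other cell; their part in the astrocyte values was not tested. "Astrocyte" below is therefore the label, not a type shown by its markers.

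S100 proteins carry EF-hand loops that bind calcium, usually pair as dimers, and on binding calcium expose a surface that grips target proteins. They have no enzyme activity of their own and act through these partners. S100a4 binds non-muscle myosin IIA and is widely used as a marker of fibroblasts and motile cells. S100a6, also called calcyclin, is abundant in proliferating fibroblasts and epithelium. S100a10 does not respond to calcium and forms a complex with annexin A2 at the plasma membrane. S100a1 is the S100 protein best known from heart muscle, where it acts on the ryanodine receptor and the sarcoplasmic calcium pump. S100b is a classical marker of astrocytes. S100g, or calbindin-D9k, carries calcium through cells that absorb it, in intestine, kidney and uterus, and is induced by vitamin D. S100a13 takes part in the release of proteins that lack a signal peptide, such as FGF1.

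S100a4 and S100a6 lie close together on chromosome 3, with S100a5 as the only protein-coding gene between them. S100a1 and S100a13 are neighbours on that chromosome, as are S100a10 and S100a11. S100b lies on chromosome 10 and S100g on the X chromosome. The 250 bases before the annotated start are printed for S100a4 and S100a6, whose levels followed a shared pattern across groups, and for S100g, which followed another. The sequences are RefSeq's on GRCm38.p6, 5′ to 3′ on the gene's strand, at chr3:90603520-90603769 (plus strand), chr3:90612644-90612893 (plus strand) and chrX:162964600-162964849 (minus strand). Capitals mark motif matches on either strand. The TATA box was searched as TATAAA. The GC box was searched as GGGCGG. The AP-1 site was searched as TGANTCA. The CCAAT box was searched by the letters of its name, and in S100a6 it lies on the opposite strand.
S100a4: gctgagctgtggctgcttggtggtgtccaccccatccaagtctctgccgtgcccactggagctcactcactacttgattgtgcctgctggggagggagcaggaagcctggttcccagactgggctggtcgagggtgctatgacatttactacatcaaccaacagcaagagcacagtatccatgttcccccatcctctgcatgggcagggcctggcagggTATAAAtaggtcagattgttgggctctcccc
S100a6: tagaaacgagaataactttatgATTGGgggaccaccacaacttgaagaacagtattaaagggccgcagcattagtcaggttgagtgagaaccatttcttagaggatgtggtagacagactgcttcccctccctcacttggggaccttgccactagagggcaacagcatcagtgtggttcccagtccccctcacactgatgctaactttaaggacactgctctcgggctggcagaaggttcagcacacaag
S100g: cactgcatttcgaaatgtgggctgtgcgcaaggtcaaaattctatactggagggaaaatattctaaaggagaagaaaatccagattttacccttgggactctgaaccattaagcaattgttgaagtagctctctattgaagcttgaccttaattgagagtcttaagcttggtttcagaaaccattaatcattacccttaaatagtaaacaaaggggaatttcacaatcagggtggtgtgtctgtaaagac
The S100a4 window held a TATA box with its first base 31 bases before the start, a match that 12.4% of the 32851 mouse promoters in the table also hold in their window. The S100a6 window held a CCAAT box 228 bases before the start, which 33.8% of promoters hold. The S100g window held no match to any of the 4 motifs. A match of letters is a description of the sequence only.

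S100a4, S100a6 and S100a10 were lower in cardiomyocytes than in fibroblasts, and the levels of transfected fibroblasts overlapped those of fibroblasts. S100a4 stood at 7.42, 6.94, 7.79 and 9.98 in the 4 cardiomyocytes, against 12.17, 12.68 and 14.34 in the 3 fibroblasts. S100a6 stood at 4.28, 5.31, 5.67 and 5.43 in cardiomyocytes, against 8.52, 9.84 and 11.79 in fibroblasts. S100a10 stood at 5.10, 4.52, 4.97 and 9.41 in cardiomyocytes, against 10.50, 10.76 and 13.71 in fibroblasts. In each of the 3 genes every cardiomyocyte was below every fibroblast. The cardiomyocyte numbered 4 was the highest of its group for S100a4 and S100a10 but not for S100a6. Vim, which encodes the intermediate filament vimentin of mesenchymal cells, was at 11.38 in that cell as well, against 4.65, 4.17 and 3.05 in the other cardiomyocytes, and the part of this in the S100 values was not tested.

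**Figure D1:**
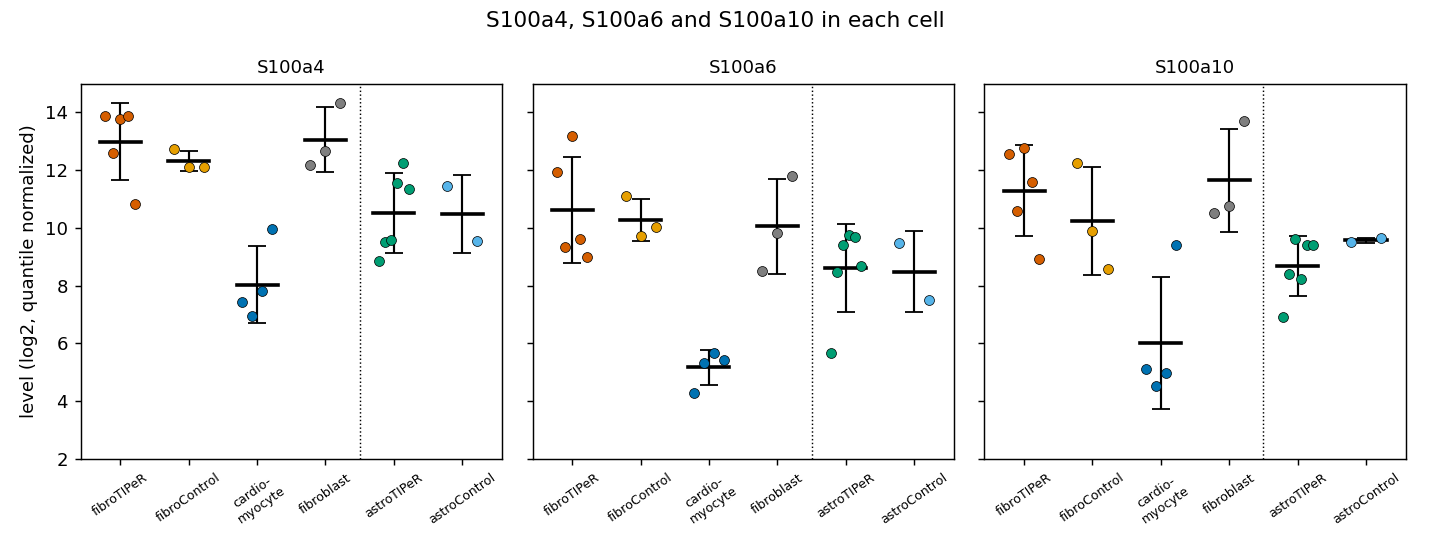
Level (log2, y axis) of S100a4, S100a6 and S100a10 in each of the 23 cells, by group (x axis); points are cells, thick bars group means and thin bars the SD, and the dotted line parts the array sets. Cardiomyocytes sit lowest in all 3 panels, with means of 8.03, 5.17 and 6.0, and fibroTIPeR, fibroControl and fibroblast cells overlap.

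Cardiomyocytes fell below fibroblasts in all 3 genes. S100a4 averaged 8.03 ± 1.34 in cardiomyocytes (SD, n = 4) and 13.06 ± 1.13 in fibroblasts (SD, n = 3), a difference of -5.03 (SE 0.81, 95% interval -6.69 to -3.37, limma adjusted p = 0.00268). S100a6 averaged 5.17 ± 0.61 in cardiomyocytes and 10.05 ± 1.65 in fibroblasts, a difference of -4.88 (SE 1.04, interval -7.01 to -2.75, limma adjusted p = 0.0384). S100a10 averaged 6.0 ± 2.29 in cardiomyocytes and 11.66 ± 1.78 in fibroblasts, a difference of -5.66 (SE 1.10, interval -7.92 to -3.40, limma adjusted p = 0.0224). Thus 3 of the 7 genes tested passed the threshold, all lower in cardiomyocytes, where 0.225% of all 18193 genes passed and 0.126% passed as lower. The 7 were chosen with earlier results known, so their share is not a test of the family. Of 7 further genes measured of the family or its binding protein, none passed. Groups that do not overlap, with cardiomyocytes the lower, were found in 4.24% of all genes. These calls leaned on few cells: without fibroblast 3, none passed (S100a4 -4.39, adjusted p = 0.0599; S100a6 -4.01, adjusted p = 0.376; S100a10 -4.63, adjusted p = 0.249), and the S100a6 call also ended without fibroblast 2 or any 1 of the cardiomyocytes (adjusted p 0.0618 to 0.112) and the S100a10 call without cardiomyocyte 1, 2 or 3 (adjusted p 0.0594 to 0.0863). S100a6 also missed the threshold under every other scaling tried (adjusted p 0.0818 to 0.113), and none of the 3 passed in a fit of the compared groups only (adjusted p 0.0557 to 0.170).

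The fibroTIPeR cells, which had received cardiomyocyte RNA, had levels of this trio that overlapped those of the other fibroblasts. S100a4 was 13.89, 12.58, 13.77, 13.89 and 10.83 in fibroTIPeR cells, against 12.73, 12.12 and 12.12 in fibroControl cells. S100a6 was 11.93, 9.35, 13.19, 9.62 and 9.0 in fibroTIPeR cells, against 11.11, 9.73 and 10.02 in fibroControl cells. S100a10 was 12.55, 10.57, 12.78, 11.59 and 8.93 in fibroTIPeR cells, against 12.25, 9.88 and 8.56 in fibroControl cells. The groups overlapped for all 3 genes, and the fibroTIPeR cell numbered 5 was the lowest of its group in each. All 5 fibroTIPeR cells were above all 4 cardiomyocytes for S100a4 and S100a6, whereas for S100a10 the cardiomyocyte at 9.41 overlapped them.

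Against cardiomyocytes, fibroTIPeR cells were higher by 4.96 for S100a4 (SE 0.71, 95% interval 3.5 to 6.42, limma adjusted p = 0.000311), by 5.44 for S100a6 (SE 0.91, interval 3.58 to 7.31, limma adjusted p = 0.00219) and by 5.29 for S100a10 (SE 0.97, interval 3.30 to 7.27, limma adjusted p = 0.00564). These 3 of 7 genes passed, where 0.561% of all genes passed and 0.423% passed as higher, and the calls held with each of the 9 cells left out in turn. The S100a10 call ended in a fit of the compared groups only (adjusted p = 0.0724). Non-overlap with fibroTIPeR higher, seen for 2 of the 7, was found in 1.9% of all genes. With fibroTIPeR 4 and 5 alone, the pair with low 18S signal, the differences were 4.33, 4.14 and 4.26 (limma adjusted p = 0.125, 0.303 and 0.613), and with the 18S level as a covariate 3.95, 3.33 and 3.58 (adjusted p = 0.102, 0.508 and 0.678), none past the threshold. This comparison and that of cardiomyocytes with fibroblasts share the 4 cardiomyocytes.

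Against the cells that received fibroblast RNA, none of the 7 genes tested passed with limma, none had an unadjusted p under 0.05, and 0.0055% of all genes (1 gene) passed, with 6.62% under 0.05 unadjusted. S100a4 averaged 12.99 ± 1.33 in fibroTIPeR cells (SD, n = 5) and 12.32 ± 0.35 in fibroControl cells (SD, n = 3), a difference of 0.67 with a 95% interval of -0.92 to 2.26 (limma adjusted p = 0.915). S100a6 differed by 0.33 (interval -1.70 to 2.36, limma adjusted p = 0.973) and S100a10 by 1.05 (interval -1.11 to 3.22, limma adjusted p = 0.901). The intervals reach about 1 to 2 units below 0. Cardiomyocytes differed from fibroblasts by -5.03 for S100a4, -4.88 for S100a6 and -5.66 for S100a10. With the S100a10 probe sets averaged, that last difference was -1.58. Against untransfected fibroblasts the differences of fibroTIPeR cells were -0.07 for S100a4 (interval -1.66 to 1.52, limma adjusted p = 0.988), 0.57 for S100a6 (interval -1.47 to 2.60, adjusted p = 0.898) and -0.37 for S100a10 (interval -2.53 to 1.79, adjusted p = 0.943).

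**Figure D2:**
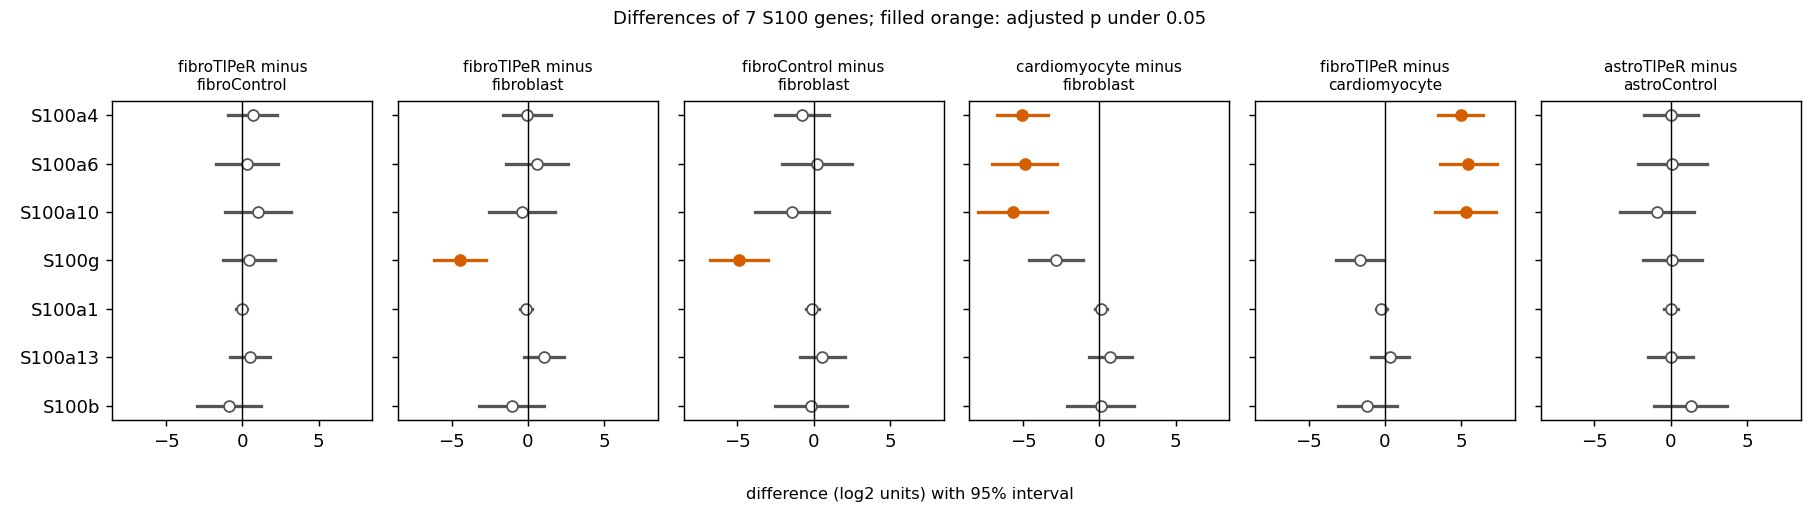
Fitted difference (log2, x axis) with its 95% interval for each of the 7 S100 genes in each comparison; filled points passed the limma threshold. S100a4, S100a6 and S100a10 lie about 5 units from 0 in both comparisons with cardiomyocytes, and S100g lies at -4.46 and -4.89 in the comparisons of transfected with untransfected fibroblasts.

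In the arrays labelled astrocyte the group means of this trio lay between those of cardiomyocytes and fibroblasts. S100a4 ran from 8.84 through a median of 10.46 to 12.26 in the 6 astroTIPeR cells, and was 11.45 and 9.53 in the 2 astroControl cells. S100a6 ran from 5.68 through 9.03 to 9.76 in astroTIPeR cells, and was 9.48 and 7.49 in astroControl cells. S100a10 ran from 6.90 through 8.91 to 9.63 in astroTIPeR cells, and was 9.51 and 9.64 in astroControl cells. The groups overlapped for each gene. Cardiomyocyte RNA gave differences from mock transfection of 0.02 for S100a4 (95% interval -1.75 to 1.79), 0.12 for S100a6 (interval -2.15 to 2.39) and -0.90 for S100a10 (interval -3.32 to 1.51). None of the 7 genes passed with limma and none had an unadjusted p under 0.05, where 0.0495% of all genes passed and 9.44% were under 0.05 unadjusted. AstroTIPeR 1 was the lowest of its group in all 3 genes, and its Vim level of 9.66 was also below those of the other astroTIPeR cells (11.83 to 13.82).

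Ordered by mean, cardiomyocytes were the lowest group for all 3 genes, and the groups next to each other in the order overlapped, except that both astroControl cells were above all cardiomyocytes for S100a6. The order between the array sets rests on the normalisation.

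Within the 11 cells of fibroblast origin, S100a4 and S100a10 varied together, with a Pearson correlation of 0.88, and S100a6 followed S100a10 at 0.75 and S100a4 at 0.70. These are descriptions over 11 cells that share normalisation and differ in 18S signal. S100a6 correlated with the 18S level at 0.63, S100a4 at 0.19 and S100a10 at 0.18. Over the 15 cells of the fibroblast and cardiomyocyte arrays, the genes whose levels were most like S100a4 were Tpm3, a tropomyosin (r = 0.98), and Tuba1a, an alpha-tubulin (r = 0.96). The same 2 genes came out for S100a10, each at 0.97. For S100a6 they were Actb, cytoplasmic actin (r = 0.96), and Ybx1, an RNA-binding protein (r = 0.96). Among the 11 fibroblast-derived cells alone the correlations were 0.83 and 0.82 for S100a4, 0.88 and 0.85 for S100a10, and 0.95 and 0.88 for S100a6. These 11 cells are part of the 15 used to pick the genes, so they are no separate check. For every member the most alike were picked from all genes outside the family, and no chance level was set.

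S100a10 had 2 further probe sets, which did not follow this pattern. Probe set 1416762_at averaged 5.25 in cardiomyocytes and 4.60 in fibroblasts, a difference of 0.65 (adjusted p = 0.811 by limma over all probe sets), and 1439348_at averaged 4.49 in cardiomyocytes and 4.2 in fibroblasts, a difference of 0.29 (adjusted p = 0.926). In cardiomyocytes and fibroblasts both averaged below the median gene. Their differences, neither past the threshold, had the opposite sign to that of 1456642_x_at, on which the S100a10 values above rest. In fibroControl cells 1416762_at averaged 5.90, above the median gene. With the 3 probe sets averaged, the S100a10 difference was -1.58 for cardiomyocytes against fibroblasts (limma adjusted p = 0.405) and 2.0 for fibroTIPeR cells against cardiomyocytes (adjusted p = 0.0827), neither past the threshold.

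S100g showed a different pattern: it was high in untransfected fibroblasts and low in fibroblasts transfected with either RNA. It was 4.03, 3.68, 3.18, 5.91 and 6.37 in fibroTIPeR cells and 4.50, 4.78 and 3.35 in fibroControl cells, against 9.42, 9.23 and 8.63 in fibroblasts. All 8 transfected cells lay below all 3 fibroblasts, the nearest by more than 2 units. The fibroblasts were above the median gene, whereas 6 of the 8 transfected cells were below it.

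FibroControl cells averaged 4.21 ± 0.76 and fibroblasts 9.09 ± 0.41 (SD, n = 3 each), a difference of -4.89 (SE 0.93, 95% interval -6.80 to -2.97, limma adjusted p = 0.0140). S100g was the only 1 of the 7 genes tested that passed in this comparison, where 1.56% of all genes passed and 0.835% passed as lower; non-overlap in this direction was found in 10.9% of all genes. The call held with each of the 6 cells left out in turn (adjusted p up to 0.0470). FibroTIPeR cells averaged 4.63 ± 1.42 (SD, n = 5), a difference from fibroblasts of -4.46 (SE 0.83, interval -6.17 to -2.75, limma adjusted p = 0.0459). It was again the only 1 of 7 to pass, where 0.055% of all genes passed, 0.0495% passed as lower and 2.35% did not overlap in this direction. This call ended without fibroTIPeR 1, 2 or 3 or any 1 of the fibroblasts (adjusted p 0.0797 to 0.172, differences -4.10 to -4.69), and with median centring or quantile normalisation within each array set (adjusted p = 0.0558 and 0.0552). The comparisons share the 3 fibroblasts. Between fibroTIPeR and fibroControl cells S100g differed by 0.42 (interval -1.29 to 2.13, limma adjusted p = 0.953).

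The 18S signal ran against S100g in these cells. It was 12.38, 11.03, 13.48, 7.80 and 7.88 in fibroTIPeR cells and 12.08, 11.23 and 11.56 in fibroControl cells, against 7.05, 7.25 and 8.06 in fibroblasts. Over the 11 cells S100g and 18S correlated at -0.89, and S100g and the B2 repeat control at -0.83, over cells that share both the transfection and the signal. The fibroTIPeR cells numbered 4 and 5, with 18S inside the fibroblast range, had the highest S100g of the 8 transfected cells, and were still below every fibroblast. With the 18S level as a covariate the difference was -3.18 for fibroControl cells (limma adjusted p = 0.445) and -3.21 for fibroTIPeR cells (adjusted p = 0.665), neither past the threshold, and with fibroTIPeR 4 and 5 alone it was -2.95, also not past it. The part of the 18S signal in the S100g result was not tested beyond these values.

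**Figure D3:**
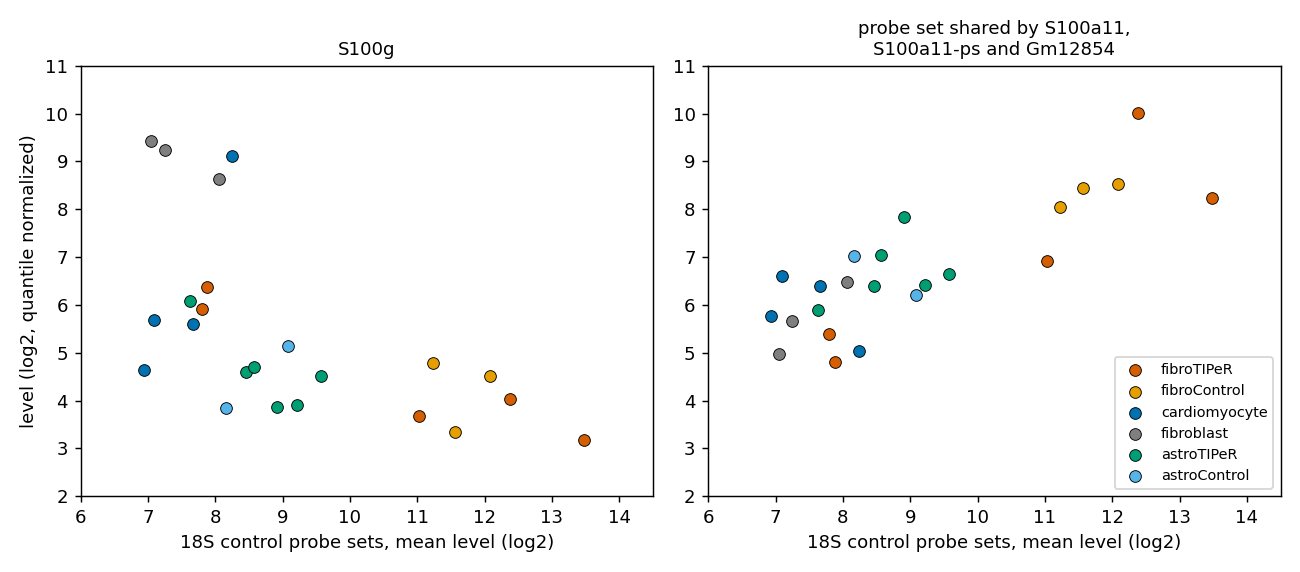
Level (log2, y axis) of S100g (left) and of the probe set shared by S100a11, S100a11-ps and Gm12854 (right) against the 18S control level (log2, x axis) in the 23 cells; each point is a cell, coloured by group. On the left the 3 fibroblasts lie at 8.63 to 9.42 with low 18S, fibroTIPeR 4 and 5 at 5.91 and 6.37 with low 18S, and the other transfected fibroblasts at 3.18 to 4.78 with high 18S.

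Cardiomyocytes had S100g levels of 4.65, 9.11, 5.69 and 5.60, so cell 2 stood within the fibroblast range and the others below it. They averaged 6.26 ± 1.96 (SD, n = 4), a difference from fibroblasts of -2.83 (95% interval -4.62 to -1.04, limma adjusted p = 0.249). Without cardiomyocyte 2 the difference was -3.78 and passed (adjusted p = 0.0300). S100g was 3.87 to 6.09 in astroTIPeR cells, with a median of 4.55, and 3.85 and 5.15 in astroControl cells, which overlapped (difference 0.11, interval -1.80 to 2.02). Genes most like S100g over the 15 cells were Fam183b (r = 0.92) and Mmp24, a membrane-bound matrix metalloproteinase (r = 0.90).

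S100a1 was high and nearly the same in every cell. It was 12.71, 12.77, 12.23, 12.31 and 12.80 in fibroTIPeR cells, 12.71, 12.74 and 12.38 in fibroControl cells, 12.88, 12.81, 12.72 and 12.81 in cardiomyocytes and 12.65, 12.73 and 12.73 in fibroblasts. Over all 23 cells it ran from 12.23 to 13.27, with an SD of 0.257, near the median SD of 0.235 of the 763 genes with a mean of at least 12. These groups overlapped, and S100a1 was not past the threshold in any comparison: cardiomyocytes differed from fibroblasts by 0.10 (limma adjusted p = 0.905), and fibroTIPeR from cardiomyocytes by -0.24 (adjusted p = 0.534). The sign of such small differences turned with median centring in 4 comparisons. Its second probe set, 1419814_s_at, ran much lower on its own scale and less evenly. It was 7.68, 5.52, 7.20 and 8.04 in cardiomyocytes, against 6.15, 5.73 and 4.81 in fibroblasts, a difference of 1.55 (limma adjusted p = 0.718 over all probe sets), and 1 fibroControl cell reached 12.30 where the others were 5.49 and 5.32. The probe sets thus gave different pictures of S100a1. Hspb1, a small heat shock protein, was most like S100a1 (r = 0.90), followed by Fancb (r = 0.88).

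S100b, despite its use as an astrocyte marker, was not set apart in the arrays labelled astrocyte. It ran from 7.54 through a median of 8.06 to 9.25 in astroTIPeR cells and was 8.16 and 5.82 in astroControl cells. It was 9.07, 6.78, 7.70 and 8.01 in cardiomyocytes, against 8.03, 9.09 and 6.31 in fibroblasts, and the groups overlapped. In fibroTIPeR cells it was 5.42, 6.83, 4.99, 7.36 and 9.10, against 10.47, 6.01 and 6.37 in fibroControl cells. The difference of astroTIPeR from astroControl cells was 1.30 (95% interval -1.05 to 3.66, limma adjusted p = 0.814; 2.47 without astroControl 1 and 0.13 without astroControl 2) and that of fibroTIPeR from fibroControl cells -0.88 (interval -2.99 to 1.23, adjusted p = 0.916; 0.55 without fibroControl 1). The difference between these effects was -2.18 (interval -5.34 to 0.99, adjusted p = 0.790). The second S100b probe set, 1434342_at, averaged 4.95 ± 1.14 in fibroTIPeR cells, 4.81 ± 1.04 in fibroControl cells, 5.38 ± 0.82 in cardiomyocytes, 3.58 ± 1.08 in fibroblasts, 4.80 ± 0.85 in astroTIPeR cells and 4.24 ± 0.55 in astroControl cells. By it fibroTIPeR cells differed by 1.37 from fibroblasts and by 0.14 from fibroControl cells, where the first probe set gave -1.07 and -0.88, and cardiomyocytes differed from fibroblasts by 1.8, where the first gave 0.08, none past the threshold (limma adjusted p 0.429 to 0.986 for the second probe set). Most like S100b over the 15 cells were Vps11 (r = 0.88), of the vesicle tethering complexes of endosomes, and Yif1b (r = 0.87).

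S100a13 ranged from 3.37 to 6.66 over all cells, around the median gene's level of 5.71 and mostly below it. It was 6.23, 6.47, 6.66, 5.36 and 3.37 in fibroTIPeR cells, 4.60, 5.73 and 5.03 in fibroControl cells, 4.65, 4.85, 6.08 and 5.56 in cardiomyocytes and 5.18, 4.21 and 4.28 in fibroblasts. All groups overlapped their neighbours in the order of means. FibroTIPeR cells differed from fibroblasts by 1.06 (95% interval -0.27 to 2.38, limma adjusted p = 0.617; -0.19 with fibroTIPeR 4 and 5 alone and 1.90 with fibroTIPeR 1 to 3 alone) and cardiomyocytes from fibroblasts by 0.73 (adjusted p = 0.757). Within the 11 fibroblast-derived cells S100a13 ran against S100b, with a correlation of -0.70. Flacc1 (r = 0.90) and D130017N08Rik (r = 0.89) were most like it over the 15 cells.

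**Figure D4:**
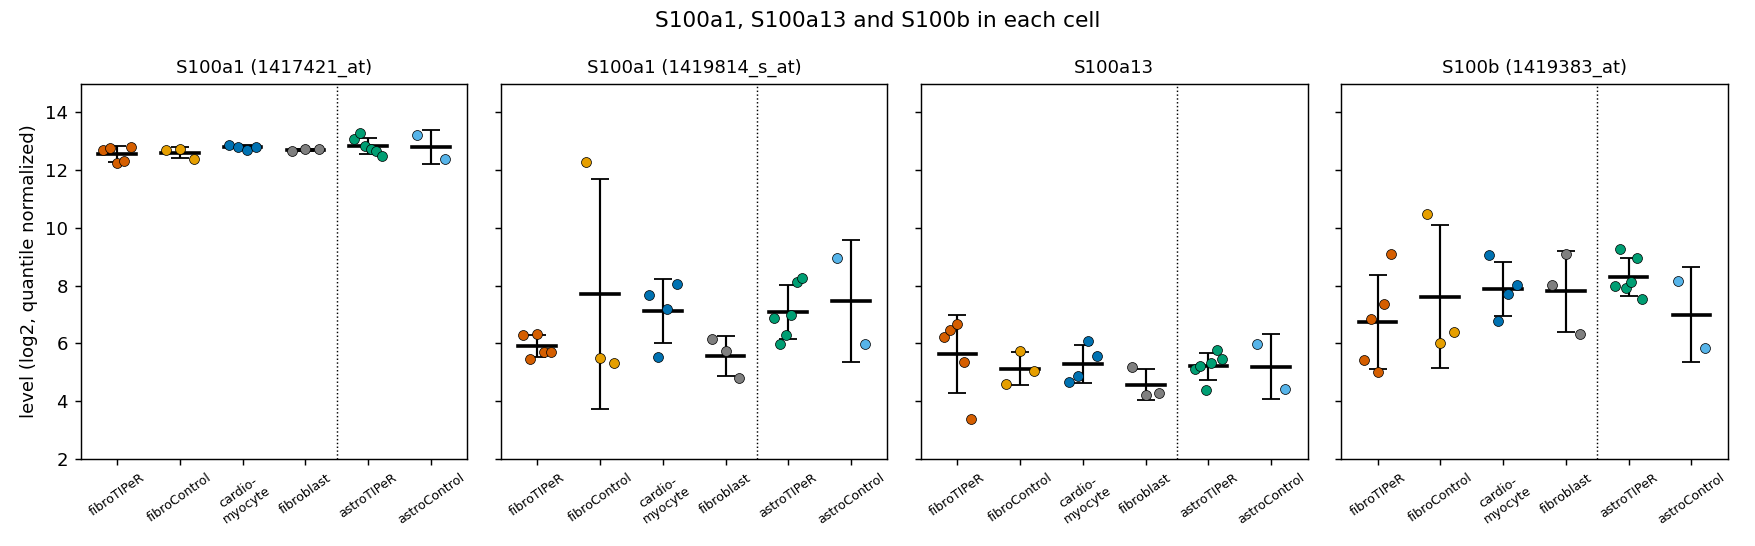
Level (log2, y axis) of both S100a1 probe sets, S100a13 and S100b in each of the 23 cells by group (x axis); points are cells, thick bars group means and thin bars the SD, and the dotted line parts the array sets. S100a1 lies between 12.23 and 13.27 in every cell by 1417421_at, whereas 1419814_s_at, S100a13 and S100b overlap between neighbouring groups at lower levels, apart from 1 fibroControl cell at 12.30 by 1419814_s_at.

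The probe set shared by S100a11, S100a11-ps and Gm12854, 1460351_at, was 10.02, 6.91, 8.23, 5.38 and 4.81 in fibroTIPeR cells and 8.52, 8.05 and 8.44 in fibroControl cells, against 4.97, 5.65 and 6.47 in fibroblasts. All fibroControl cells were above all fibroblasts, as in 12.5% of all genes tested, while fibroTIPeR cells ran over both ranges. FibroControl cells differed from fibroblasts by 2.64 (SE 1.0, limma adjusted p = 0.167 over all probe sets) and fibroTIPeR from fibroControl cells by -1.26 (adjusted p = 0.875), neither past the threshold. Its correlation with 18S over the 11 cells was 0.90, and the part of that signal in the level was not tested. It was 5.76, 5.03, 6.60 and 6.40 in cardiomyocytes, and ran from 5.90 through 6.54 to 7.83 in astroTIPeR cells.

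The effect of cardiomyocyte RNA was also set against that in astrocytes. None of the 7 genes had a transfer effect in fibroblasts that differed from that in astrocytes by limma, and none had an unadjusted p under 0.05, where 0% of all genes passed and 7.65% were under 0.05 unadjusted. The median difference of effects over the 7 genes was 0.31, beside -0.09 over all genes. S100a10 had the difference 1.96 (95% interval -1.29 to 5.20). The intervals are wide, with 2 cells in the astroControl group.

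Of 18 genes for binding partners and receptors of S100 proteins, 16 were measured. Between cardiomyocytes and fibroblasts 1 rose, none fell and 15 did not pass: Atp2a2, the calcium pump of the sarcoplasmic reticulum that S100A1 acts on, averaged 12.55 ± 0.68 in cardiomyocytes and 7.04 ± 3.09 in fibroblasts (difference 5.52, limma adjusted p = 0.0358). That call ended without any 1 of the 7 cells other than fibroblast 3 (adjusted p 0.0612 to 0.173) and under every other scaling tried (adjusted p 0.0540 to 0.0936), and with probe sets averaged the difference was 1.37. The call also ended in a fit of the compared groups only (limma adjusted p = 0.137). Over all genes 0.225% passed in this comparison. The list's median difference was -0.18, beside 0.09 over all genes. Between fibroTIPeR cells and cardiomyocytes 1 rose, 1 fell and 14 did not pass, where 0.561% of all genes passed. Myh9, the heavy chain of the myosin that S100A4 binds, averaged 11.47 ± 1.83 in fibroTIPeR cells and 5.79 ± 2.97 in cardiomyocytes (difference 5.68, adjusted p = 0.0138 by limma). Ryr2, the cardiac ryanodine receptor, averaged 4.10 ± 1.23 in fibroTIPeR cells and 7.74 ± 0.88 in cardiomyocytes (difference -3.65, adjusted p = 0.0117 by limma). With the 18S level as a covariate the differences were 3.05 for Myh9 and -3.61 for Ryr2 (adjusted p = 0.949 and 0.327), and with probe sets averaged 2.42 and -1.98 (adjusted p = 0.0898 and 0.119). Single cells left out also ended the Myh9 call (cardiomyocyte 1 or 3, fibroTIPeR 1 or 3; adjusted p 0.0574 to 0.0796) and the Ryr2 call (cardiomyocyte 3 or fibroTIPeR 1; adjusted p = 0.0548 and 0.0517). Both calls ended in a fit of the compared groups only (limma adjusted p = 0.0979 for Myh9 and 0.0690 for Ryr2). The median was -0.19, beside -0.14 over all genes. None of the 16 passed in the other comparisons.

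Anxa2, the partner of S100a10, did not separate the cell types as S100a10 did by 1456642_x_at. It averaged 10.20 ± 0.55 in cardiomyocytes and 8.89 ± 2.39 in fibroblasts, a difference of 1.31 (95% interval -0.26 to 2.88, limma adjusted p = 0.589), and 10.13 ± 0.27 in fibroTIPeR cells. The value rests on fibroblast 3, at 6.14 where the other fibroblasts were at 10.10 and 10.43: without it the difference was -0.06, and with probe sets averaged it was -1.03. Averaged in the same way, S100a10 differed by -1.58. Neither passed the threshold (limma adjusted p = 0.579 for Anxa2 and 0.405 for S100a10).

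Of 8 genes of vitamin D action and calcium absorption, the setting in which S100g is best known, 7 were measured and none passed in any comparison. Their median difference was -1.32 between fibroTIPeR cells and fibroblasts and -0.86 between fibroControl cells and fibroblasts, beside 0.00 and 0.03 over all genes. The vitamin D receptor gene Vdr averaged 4.73 ± 0.61 in fibroTIPeR cells and 5.09 ± 0.68 in fibroControl cells, against 6.20 ± 0.60 in fibroblasts (differences -1.47 and -1.11, limma adjusted p = 0.437 and 0.442). Of 14 other EF-hand genes 10 were measured, and 1 passed: Calu, the secretory pathway protein calumenin, averaged 8.89 ± 1.45 in fibroControl cells and 4.59 ± 0.96 in fibroblasts (difference 4.30, limma adjusted p = 0.0224). With the 18S level as a covariate it was 2.24 and did not pass (adjusted p = 0.572), nor did it without fibroControl 1 or 3 or fibroblast 2 (adjusted p 0.0530 to 0.113), and with probe sets averaged it was 2.72 (adjusted p = 0.0175). Calu also missed the threshold in a fit of the compared groups only (limma adjusted p = 0.0876). Between fibroControl cells and fibroblasts 1.56% of all genes passed. Of 9 further genes of the S100 family or its binding protein S100pbp, 7 were measured and none passed in any comparison.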

How the data were processed

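The deposited table held log2 expression values of 45101 probe sets, as judged from their range; how the authors summarised and normalised them was not stated in the labels. Column medians ran from 5.05 to 5.58 on the 15 fibroblast and cardiomyocyte arrays and from 4.28 to 4.56 on the 8 astrocyte arrays, 1.29 between the extremes, so all columns were quantile normalised to each other. The 64 control probe sets, 932 probe sets with several symbols and 9160 that the annotation does not list were left out of the gene tests. For genes with several probe sets (9010 of 18193) the probe set of highest mean level was used.

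Genes were fitted with limma 3.58.1 in R 4.3.3 (lmFit with 6 group means over all 23 cells, eBayes with a trend), two-sided, with Benjamini-Hochberg adjustment over all 18193 genes of each of 6 comparisons and 1 difference of effects, and a threshold of 0.05. Intervals are 95% intervals from that fit. Probe sets not used for a gene were tested in a fit of every probe set. Precision is limited by the number of arrays. The code of the fit was run on simulated data with known changes. Those data had independent noise drawn from the fit's own variances, so they do not check its assumptions on these cells. Python 3.11.15 and matplotlib 3.10.9 drew the figures.

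The members, gene lists and tests were chosen with earlier results of these data known. Text names all members, for each the 2 other genes most correlated with it over 15 cells, and up to 3 members of each list past the threshold; Anxa2 and Vdr were named after their values were seen. Alternatives were other scalings, filters, probe set rules and variance models, the replicate number as a term, the 18S level as a covariate, subsets of the fibroTIPeR cells and each cell left out.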

Additional observations from a re-analysis of the deposited data

Results flagged for a closer look

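The groups of 4 to 6 cells were screened, for each of the 12 S100 probe sets, for single cells far from the rest of their group, by the gap to the nearest other cell over the whole range of the group. Such a screen picks out about 1 in 20 groups by chance, and it picked out 2 of 36. S100a6 was at 5.68 in astroTIPeR 1, where the other astroTIPeR cells were at 8.46 to 9.76. S100a10 (1456642_x_at) was at 9.41 in cardiomyocyte 4, where the other cardiomyocytes were at 4.52 to 5.10. Without that cardiomyocyte the S100a10 difference from fibroblasts was -6.80 (limma adjusted p = 0.000968).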

How the results depend on the processing

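No difference of a called S100 gene reversed under an alternative that gave 1 value per gene. By single probe sets, S100a10 did change sign between cardiomyocytes and fibroblasts. Its probe sets not used for the gene gave 0.65 and 0.29, neither past the threshold. The number of S100 genes past the threshold between fibroTIPeR cells and fibroblasts, 1 as reported, was 0 with median centring, quantile normalisation within each array set, genes above the median level, the mean of the probe sets, no trend, the compared groups only, the 18S covariate and fibroTIPeR 4 and 5 only. Between fibroControl cells and fibroblasts it was 0 against 1 with genes above the median level, where S100g is not tested, and with the 18S covariate. Between cardiomyocytes and fibroblasts the 3 reported became 1 (S100a4) with the mean of the probe sets or no trend, and 0 with the compared groups only. Only S100a6 was lost with values as deposited, median centring, quantile normalisation within each array set and the replicate number as a block. Between fibroTIPeR cells and cardiomyocytes the 3 became 0 with the 18S covariate and with fibroTIPeR 4 and 5 only, and 4 with fibroTIPeR 1 to 3 only, where S100g passed too (adjusted p = 0.0486). Only S100a10 was lost there with the mean of the probe sets and with the compared groups only (limma adjusted p = 0.0827 and 0.0724). With single cells left out, the counts ran from 0 to 1 (fibroTIPeR against fibroblast), 1 to 1 (fibroControl against fibroblast), 0 to 3 (cardiomyocyte against fibroblast), 3 to 3 (fibroTIPeR against cardiomyocyte) and 0 to 0 in the others. Why a count changed with a setting was not tested. Deviations of same-numbered cells correlated at -0.34 to 0.29. With 2 to 4 such pairs per comparison, this cannot tell whether the numbers pair the cells. With the replicate number as a block the S100a6 difference of cardiomyocytes from fibroblasts was -4.91 (limma adjusted p = 0.0699) and no longer passed. No other S100 call changed with the block. The counts over all genes moved more: 0 to 161 against 1 (fibroTIPeR against fibroControl), 0 to 610 against 10 (fibroTIPeR against fibroblast) and 0 to 479 against 283 (fibroControl against fibroblast), the 479 being of 34945 probe sets and not of 18193 genes. They were 2 to 71 against 41 (cardiomyocyte against fibroblast), 9 to 1056 against 102 (fibroTIPeR against cardiomyocyte), 3 to 87 against 9 (astroTIPeR against astroControl) and 0 to 24 against 0 for the difference of effects. With single cells left out these counts ran from 1 to 17, 0 to 72, 42 to 144, 11 to 37, 40 to 269, 4 to 543 and 0 to 237 in the same order, the last 2 maxima without astroControl 1. The share of higher calls was 50% with median centring (1 of 2 calls) against 10% as reported (1 of 10) for fibroTIPeR against fibroblast, a split of too few calls to read, 57.3% against 46.3% for fibroControl against fibroblast, and 51.5% against 22.2% for astroTIPeR against astroControl (37.5% as deposited, 34.5% normalised within array sets, where the first share was also 50%). The median of all genes between fibroTIPeR cells and cardiomyocytes was -0.14, and -0.24 for values as deposited. Detection calls were not used here, so no background level was set for dim probe sets such as that of S100g in transfected cells.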
